A study of Caenorhabditis elegans with 3 samples.

Results

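The nas genes of the nematode Caenorhabditis elegans encode secreted zinc metalloproteases of the astacin family. They were taken as every probe whose single listed gene symbol starts with nas- and that had a value on all arrays, which gave 33 genes, each with 1 probe, of 15078 genes measured. No nas probe was lost for a missing value or for carrying several symbols. The gene table of the current assembly, WBcel235, lists 37 nas genes, and the other 4 (nas-2, nas-23, nas-30 and nas-40) were not analysed here. The study hybridised RNA of early young adult hermaphrodites on 3 two-colour arrays, 1 worm prep per array, each against mRNA of a mixed wild-type reference. The sources used here give neither the strain and growth conditions nor the stages pooled in the reference, and neither a stage nor a sex can be read from a ratio alone. Every value below is a log2 ratio, with positive values above the reference and 1 unit for each doubling.

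Astacins are made as inactive precursors, and their catalytic domain binds a zinc ion. Their best-known work in worms is on the extracellular matrix: they trim procollagens, help loosen the old cuticle at each moult and shape cuticular structures such as the grinder of the pharynx. The family is usually divided by domain makeup into subgroups numbered I to VI, and genes were assigned to them here by gene number. Subgroup I has little beyond the protease domain, subgroup II carries toxin-like ShK domains, subgroup III carries EGF and CUB domains, subgroup V adds a thrombospondin type 1 domain, and subgroup VI is the tolloid-like nas-39.

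The arrays had values for 19914, 19829 and 19742 of 20000 probes in preps 1, 2 and 3. Since the labels assign channel 2 to the worms, the sign is likely worms over reference. The labels name no dyes, and all directions given here would turn if the sign ran the other way. The adult cuticle collagen genes col-62, col-19 and col-7, at 2.69, 2.60 and 2.51, lay on the side that this sign gives for adults. Preps 2 and 3 resembled each other more than either resembled prep 1: across all genes, which are not independent replicates, r was 0.919 for preps 2 and 3, 0.822 for preps 1 and 2 and 0.798 for preps 1 and 3. Across the 33 nas genes r was 0.817, 0.525 and 0.579 for the same pairs. Germline marker genes were called above the reference in 12 of 12 cases, against 21.7% of all genes. Their median was 1.82, 1.81 and 1.25 in preps 1, 2 and 3. In whole-worm RNA, fewer cells of a type and less RNA per cell cannot be told apart, and the part of germline RNA in the ratios below was not tested. Nothing in the labels says that the preps came from separate cultures. The p-values reflect prep-to-prep spread alone, a gene's own together with that pooled over all genes, and this spread could be technical.

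Most nas genes, like most genes on the arrays, lay close to the reference in early young adults, and the median of the family was slightly below it. By limma's one-sample test with Benjamini-Hochberg adjustment over all genes, 10 of 33 nas genes were below the reference, 1 was above it and 22 did not pass at an adjusted p of 0.05. Over all genes tested, 22.2% were called below and 21.7% above. The 11 called members are 33.3% of the family, against a background of 44% of genes called in either direction. Before adjustment, 14 of 33 nas genes and 50.9% of all genes had a p under 0.05. The median of the 33 mean ratios was −0.21, against 0.00 for all genes, and it was −0.16, −0.26 and −0.21 in preps 1, 2 and 3. The mean was negative for 24 members (72.7%), against 49.8% of all genes, and 22 members (66.7%) had the same sign on every array, against 66.3% of all genes.

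The means of the family ran from −0.90 for nas-3 to 1.02 for nas-20, and 25 of 33 (75.8%) lay within 0.5 of the reference on the log2 scale, against 63.8% of all genes. No nas gene was called below by 1 or more, although 7.25% of all genes were, and 1 was called above by 1 or more, against 5.8% of all genes. The spread between preps had a median SD of 0.22 over the members and 0.22 over all genes. Spot intensities were not analysed here, so a member near 0 may be equal in both RNAs or too dim to measure.

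**Figure D1:**
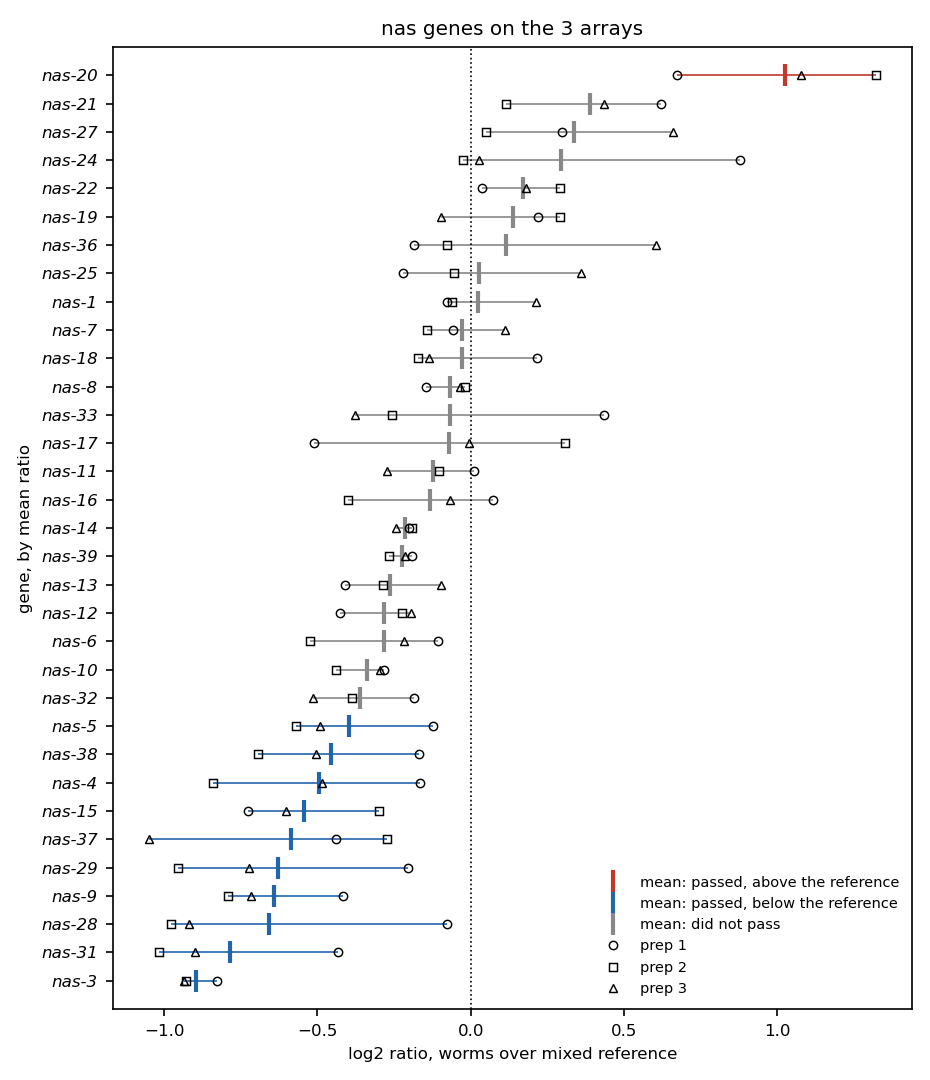
Log2 ratios of the 33 nas genes over the mixed reference, with 1 row per gene ordered by mean, an open symbol for each prep, a line for the range and a coloured bar for the mean. nas-20 has all 3 preps at 0.67 or above, while nas-3 and nas-31 lie at the low end, with means of −0.90 and −0.78.

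**Figure D2:**
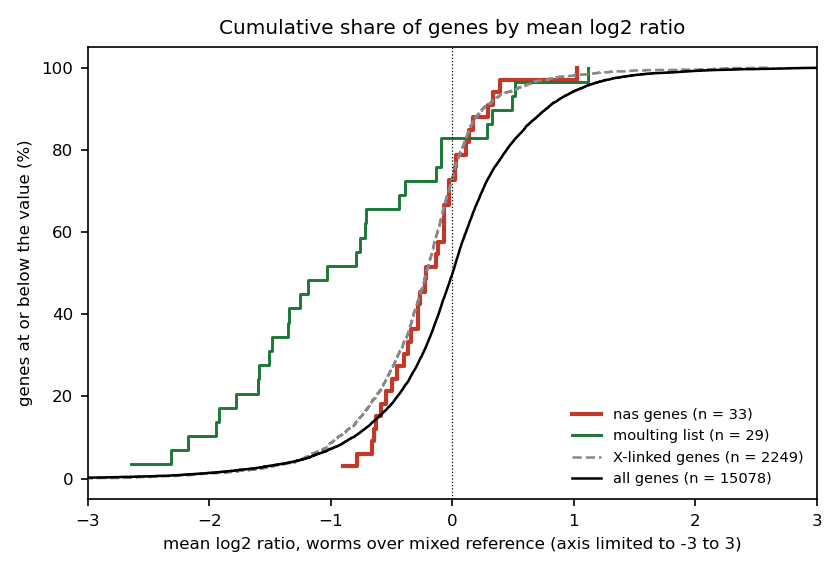
Cumulative share of genes (vertical axis, percent) by mean log2 ratio (horizontal axis) for nas genes, a list of moulting genes, X-linked genes and all genes. The nas curve has its median at −0.21 and ends at −0.90 on the low side, whereas the moulting list has its median at −1.03 and reaches −2.65.

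The highest member was nas-20, a subgroup III gene on chromosome V. Its log2 ratio was 0.67, 1.32 and 1.08 in preps 1, 2 and 3. The mean of 1.02 ± 0.33 (SD, n = 3) is 2.03-fold above the reference (95% interval 1.60 to 2.59; limma adjusted p = 6.08e-04), and 823 of the 15078 genes measured had a higher mean. All preps were well above 0, with prep 1 the lowest.

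nas-20 stands in a run of 3 adjacent nas genes on chromosome V, with no other protein-coding gene between nas-20, nas-21 and nas-22 in the WBcel235 table. Its neighbour nas-21 was at 0.62, 0.11 and 0.44, with a mean of 0.39 ± 0.26 (adjusted p = 0.0540), and did not pass. nas-22 was at 0.04, 0.29 and 0.18, with a mean of 0.17 ± 0.13 (adjusted p = 0.336). In each prep nas-20 was the highest of the 3 neighbours, although in prep 1 it exceeded nas-21 by little, and the difference between neighbours was not tested. Neighbouring family members can be alike in sequence and may share signal on an array.

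A second run of nas genes lies 13 protein-coding genes away. It holds nas-18, nas-17 and nas-19, adjacent in that order, and nas-16, which is separated from nas-18 by 1 other gene. None of the 4 passed. Their means were −0.13 ± 0.24 for nas-16, −0.03 ± 0.22 for nas-18, −0.07 ± 0.41 for nas-17 and 0.14 ± 0.21 for nas-19. The preps of each straddled 0, and nas-17 ranged from −0.51 in prep 1 to 0.31 in prep 2.

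The lowest member was nas-3, a subgroup I gene on chromosome V, at −0.83, −0.93 and −0.94 in preps 1, 2 and 3. Its mean of −0.90 ± 0.06 (n = 3) is 1.86-fold below the reference (95% interval 1.52 to 2.28; adjusted p = 4.64e-04). The 3 preps differed by 0.11 in all, and 1306 genes had a lower mean. Next was nas-31, of subgroup IV, at −0.43, −1.02 and −0.90, which averages −0.78 ± 0.31 or 1.72-fold below the reference (adjusted p = 0.00246). Both genes, and nas-20 above the reference, kept their calls without any 1 prep, with adjusted p at most 0.0177 for nas-31.

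A further 8 members were called below the reference, with means from −0.66 to −0.40. nas-28 had −0.08 in prep 1 but −0.98 and −0.92 in preps 2 and 3 (mean −0.66 ± 0.50, adjusted p = 0.0168). nas-29 had −0.21 in prep 1 and −0.95 and −0.72 in preps 2 and 3 (mean −0.63 ± 0.38, adjusted p = 0.0117). In both, prep 1 stood nearest to the reference. nas-9, on chromosome V, was at −0.42, −0.79 and −0.72 (mean −0.64 ± 0.20, adjusted p = 0.00440). nas-15, on the X chromosome, was at −0.72, −0.30 and −0.60 (mean −0.54 ± 0.22, adjusted p = 0.0113). nas-4 and nas-5, which belong to subgroup I with nas-3, averaged −0.50 ± 0.34 (adjusted p = 0.0279) and −0.40 ± 0.24 (adjusted p = 0.0484), and again prep 1 was the nearest to 0 for each, at −0.16 and −0.12.

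Prep 1 was the array nearest to 0 for 8 of the 10 nas genes called below, and also for 57.4% of all 3351 genes called below. Without prep 1 the count of nas genes below was 13, without prep 2 it was 4 and without prep 3 it was 3. The share of all genes called below, 22.2% with all preps, was 26%, 15.5% and 16.3%. Its direction of change was the same, but its relative change was smaller than that of the nas count each time. The calls of nas-4, nas-5, nas-28, nas-29 and nas-38 were lost without prep 2 and again without prep 3. That of nas-9 was lost without prep 2, narrowly (−0.57, adjusted p = 0.0501), and those of nas-15 (−0.51, adjusted p = 0.0707) and nas-37 (−0.36, adjusted p = 0.207) without prep 3. Without prep 1, nas-6, nas-10 and nas-32 passed below the reference, at −0.37, −0.37 and −0.45 (adjusted p = 0.0389, 0.0316 and 0.0119).

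**Figure D3:**
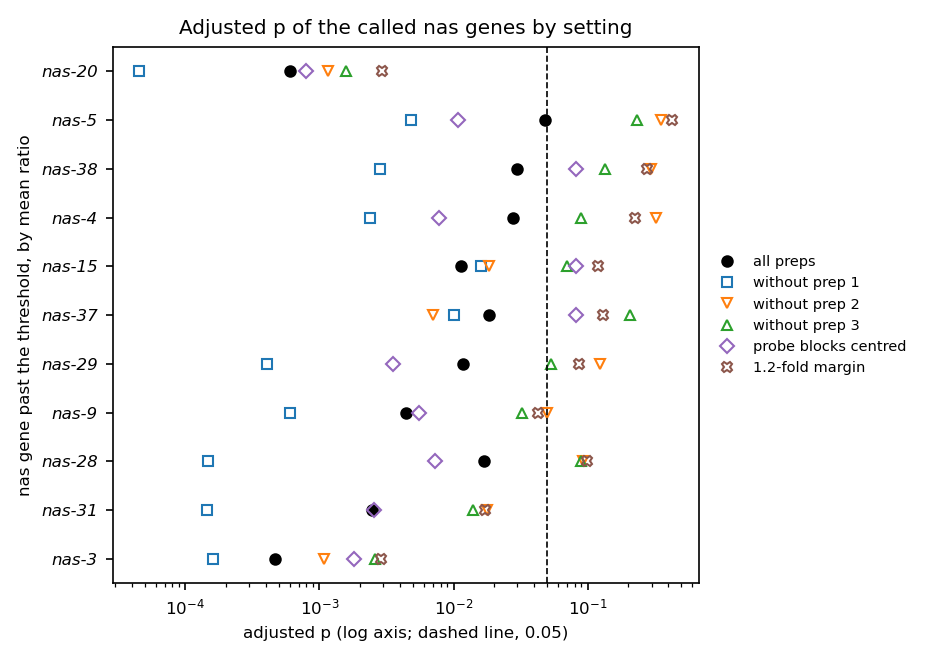
Adjusted p (horizontal log axis) of the 11 called nas genes, ordered by mean ratio, with all preps, without each prep, with blocks of 500 neighbouring probes centred, and against a 1.2-fold margin. nas-20, nas-31 and nas-3 stay left of the dashed line at 0.05 in all the settings drawn, and each of the other 8 lies right of it in at least 1.

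Of the 3 members with a known part in moulting, nas-37 and nas-38 were called below the reference and nas-36 did not pass. nas-37, whose loss leaves worms unable to shed the old cuticle fully, was at −0.44, −0.27 and −1.05 in preps 1, 2 and 3. Its mean of −0.59 ± 0.41 (n = 3) was called below the reference (adjusted p = 0.0183), with prep 3 far lower than the others. nas-36, which acts in the same process, was at −0.19, −0.08 and 0.60, averaged 0.11 ± 0.43 and did not pass (adjusted p = 0.632; 95% interval −0.27 to 0.50). Prep 3 was therefore the lowest array for nas-37 and the highest for nas-36. nas-38, which affects the length of the sleep-like pause that goes with each moult, was at −0.17, −0.69 and −0.50, with a mean of −0.46 ± 0.27 (adjusted p = 0.0299). The remaining gene with a nas- symbol in subgroup V, nas-33, averaged −0.07 ± 0.44 and did not pass, its values being 0.44, −0.26 and −0.38 in preps 1, 2 and 3.

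The members that act on the pharyngeal grinder, the cuticular plates that crush bacteria, lay near the reference. nas-6 was at −0.11, −0.52 and −0.22, with a mean of −0.28 ± 0.22 that did not pass (adjusted p = 0.135). nas-7 was at −0.06, −0.14 and 0.11, with a mean of −0.03 ± 0.13 (adjusted p = 0.882; 95% interval −0.33 to 0.27). nas-39, the worm relative of tolloid and BMP-1, was at −0.19, −0.27 and −0.21. It averaged −0.22 ± 0.04 and did not pass (adjusted p = 0.192), although its preps differed by only 0.08. Of 8 pharyngeal markers listed apart from the gland markers, not all of them limited to muscle, 3 were below and 1 above, with a median of −0.29. Of 7 pharyngeal gland markers 4 were below and 1 above, with a median of −0.59. The shares over all genes were 22.2% below and 21.7% above. Whether these markers move with nas-6 and nas-7 was not tested.

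Read by subgroup, the highest median belonged to subgroup III and the other subgroups had medians below 0. Beside the counts below, 22.2% of all genes were called below the reference and 21.7% above it. Of the 4 measured subgroup I genes 3 were below the reference and nas-1 did not pass, with a median of −0.45. All 10 measured subgroup II genes had negative means, but nas-9 and nas-15 were the only ones called, and the other 8 ran from −0.34 to −0.03. Among the 10, nas-10, nas-11, nas-13 and nas-15 are X-linked, and 73% of all X-linked genes had negative means. The SDs of the 8 that did not pass ran from 0.03 for nas-14 to 0.22 for nas-6, against a median of 0.22 over all genes. Of 12 subgroup III genes 1 was above, 2 were below and 9 did not pass, with a median of 0.08. The counts below the reference in subgroups II and III were thus near or under the all-gene share. In subgroup IV nas-31 was called, and nas-32, at −0.36 ± 0.17, did not pass (adjusted p = 0.0551). Of the 4 subgroup V genes with a nas- symbol 2 were below, the X-linked nas-37 and nas-38, with a median of −0.26 for the 4. The astacin genes dpy-31 and hch-1, described below, belong to the same subgroup and are not in these counts. The subgroups were not tested against each other.

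The 22 members that did not pass had means from −0.36 to 0.39. Besides those named above they include nas-27 at 0.34 ± 0.31 and nas-24 at 0.29 ± 0.51. The mean of nas-24 rests on prep 1 (0.88), since preps 2 and 3 gave −0.02 and 0.03. nas-25, nas-1 and nas-8 averaged 0.03, 0.03 and −0.07. nas-11, nas-14, nas-13 and nas-12 averaged −0.12, −0.21, −0.26 and −0.28, and nas-10 was at −0.34 ± 0.09 (adjusted p = 0.0603).

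The X-linked members had a lower median than the autosomal ones. All 8 X-linked nas genes had negative means, from −0.59 for nas-37 to −0.07 for nas-33, and 3 of them (nas-15, nas-37 and nas-38) were called below. Their median was −0.30, against −0.22 for all 2249 X-linked genes, of which 33.3% were called below and 6.49% above. The 25 autosomal nas genes had a median of −0.07, with 7 below and 1 above, against 0.05 for all 12751 autosomal genes, of which 20.3% were below and 24.5% above. Chromosome V held 12 of the 33 members, and 3 of these were below and 1 above, which is near the background of 24% below and 13% above among all genes of that chromosome. The median was −0.05 for these members and −0.08 for all its genes. With blocks of 500 neighbouring probes centred, the calls of the 3 X-linked genes ended, with nas-15 at −0.31, nas-37 at −0.39 and nas-38 at −0.36 (adjusted p = 0.0817, 0.0818 and 0.0820). Such centring may also remove a level that the probes of a block share. The blocks followed the order in which the probes were deposited, not their place on a chromosome.

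Astacin genes that carry other names were read beside the family. dpy-31, the protease that removes the C-terminal propeptide of cuticle procollagens, was at −0.92, −0.74 and −0.92 in preps 1, 2 and 3, with a mean of −0.86 ± 0.10 (adjusted p = 6.34e-04). It was close to nas-3 in both size and tightness. hch-1, the hatching enzyme gene, averaged −0.21 with preps at 0.12, −0.31 and −0.43, and toh-1 averaged −0.20, and neither passed. The collagen gene sqt-3, whose product DPY-31 processes, was at −0.55, −2.11 and −2.02, so prep 1 was nearest to 0 there as well.

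The list of procollagen processing and cuticle cross-linking genes, which also holds cuticle collagen genes, lay on both sides of the reference. It shares dpy-31 with the astacins above, bli-1 and rol-6 with the hypodermal markers, and bli-5 and mlt-7 with the moulting list. Of the 17 genes measured on this list, 7 were below and 4 above, with a median of −0.26. Over all genes 22.2% were below and 21.7% above. The highest were the blister collagen genes bli-2 at 0.87 and bli-1 at 0.63, and the lowest were the collagen gene rol-6 at −2.46 and phy-2, a prolyl 4-hydroxylase subunit gene, at −1.79. On the moulting list 20 of 29 measured genes were below and 3 above, with a median of −1.03. On this list 15 were below by 1 or more, against 0 of 33 nas genes and 7.25% of all genes. Its lowest members were ptr-4, a patched-related gene, at −2.65 and noah-1, which encodes an apical matrix protein, at −2.32, and its highest were the cathepsin L gene cpl-1 at 1.11 and ptr-18 at 0.51. Of 10 measured hypodermal markers 6 were below and 1 above (median −0.65), and their part in the ratios of the nas genes was not tested. The difference between the lists was not tested.

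Genes of other metalloprotease families, whether or not their products are active proteases, were also spread over both sides. Of 20 measured matrix metalloprotease, ADAM, ADAMTS, neprilysin and related genes, 5 were below and 4 above, with a median of −0.13. These counts are near the shares of all genes, 22.2% below and 21.7% above. nep-17, a neprilysin gene, was the highest at 1.30 and the ADAM gene unc-71 followed at 0.90. The lowest were acn-1, an angiotensin-converting enzyme-like gene needed for moulting, at −1.60 and nep-1 at −1.05. acn-1 is also counted on the moulting list. Both genes of the TIMP-like metalloprotease inhibitors measured were below the reference, with timp-1 at −0.61, −0.66 and −0.99 (mean −0.75, adjusted p = 0.00186) and cri-2 at −0.90, −0.45 and −0.67 (mean −0.67, adjusted p = 0.00390).

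**Figure D4:**
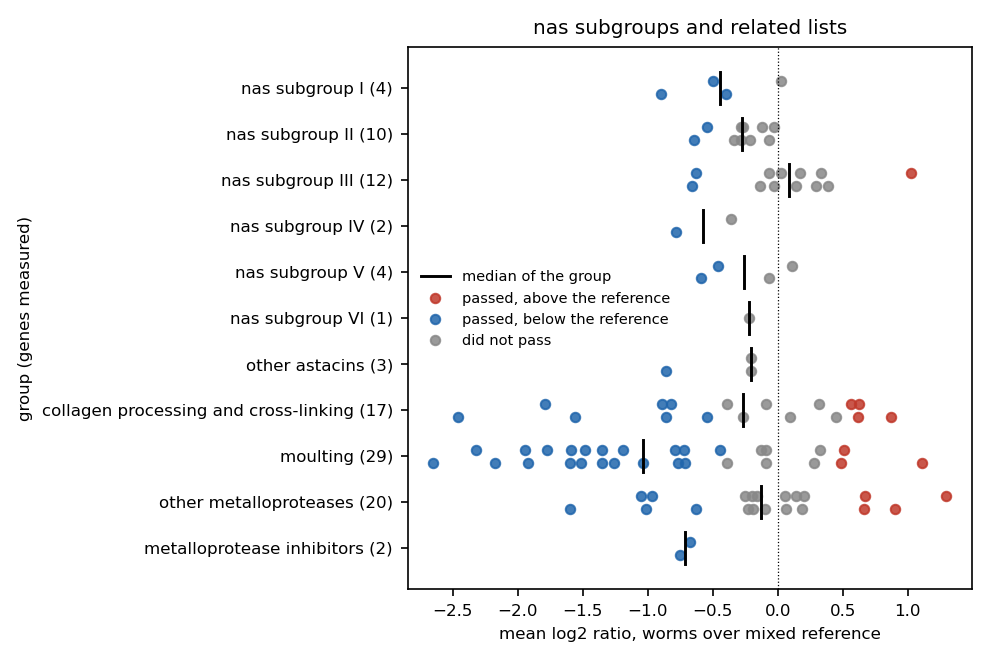
Mean log2 ratio (horizontal axis) of each gene in the nas subgroups and in the related lists, coloured by the limma call, with a black bar at each group's median. Subgroup III spans −0.66 to 1.02, all subgroup II genes lie below 0, and the moulting list reaches −2.65.

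Markers of most other tissues lay on both sides as well, whereas the germline markers were all above the reference. Of the same 8 pharyngeal markers tni-4 and tnt-4 were the highest at 0.41 and 0.08, and pha-4 and tnc-2 the lowest at −0.90 and −1.76. Among the gland markers these were phat-4 and phat-1 at 0.50 and 0.01, and dod-6 and phat-5 at −0.92 and −1.42. In the hypodermis bli-1 and grd-3, at 0.63 and 0.21, were the highest and dpy-2 and rol-6, at −2.13 and −2.46, the lowest. The germline markers ran from glh-1 and glh-2 at 2.52 and 2.20 down to pie-1 and oma-2 at 1.00 and 0.56. Of 11 intestinal markers 5 were below and 4 above, while 22.2% of all genes were below and 21.7% above. Of these markers mtl-1 at −3.47 and ftn-1 at −2.21 were the lowest and vha-6 at 1.52 and act-5 at 1.26 the highest. Of 9 male neuron markers 1 was below and 8 did not pass, with lov-1 and cil-7 the highest at 0.37 and 0.16, and cwp-2 and cwp-4 the lowest at −0.13 and −0.73. The parts of these tissues in the ratios of the nas genes were not tested.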

How the data were processed

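The authors deposited log2 ratios, with no intensities. Base 2 was inferred because it turns 100% of ratios under 1 into multiples of 0.001 (tolerance 0.01 of that step). The sources used here do not say how the authors corrected background and normalized, nor with which dyes and tools. Array medians were 0.01, 0.01 and 0.02. Ratios were used as deposited. Probes needed a value on all 3 arrays (19664 of 20000) and 1 symbol in the platform annotation, and a gene's probes were averaged per array (414 genes had several).

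Each gene's mean was tested against 0 with limma 3.58.1 in R 4.3.3 (lmFit with only an intercept, then eBayes), two-sided and Benjamini-Hochberg adjusted over 15078 genes. The prior had 7.36 degrees of freedom. Spread of the shared reference is not part of this test. The closing section gives the effect of 14 alternatives. Named were every nas gene and the 2 highest and 2 lowest genes of each related list, plus sqt-3, which was chosen after its value was seen. The nas genes and all lists were chosen with earlier results of these data known. The steps were tested on simulated data in which 200 of 15078 genes were changed. Of genes changed by 0.5 log2 units 6% were recovered, by 1 unit 90%, and by 2 or 3 units 100%. Of the unchanged genes 9 were called. In the real data 44% of genes were called, so these rates may not carry over.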

Additional observations from a re-analysis of the deposited data

How the results depend on the processing

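Of the 14 alternatives, array centring, scaling, at least 2 arrays per probe and robust moderation changed no call of a nas gene. The count of nas genes above the reference, 1 as reported, was 2 under quantile normalization, where nas-21 passed, and 2 with probe blocks centred, where nas-19 passed. Blocks also moved the nas median to −0.15 and the count of moulting genes above to 1. Without moderation 0 nas, 0 moulting and 0 of all genes passed in either direction, whereas 14 of 33 nas genes and 7669 of 15078 genes (50.9%) had an unadjusted moderated p under 0.05. Against a 1.2-fold margin 3 nas genes were below (nas-3, nas-31 and nas-9), 1 moulting gene was above, and 1973 of all genes were above and 2087 below. With the sign turned, 10 nas genes were above and 1 below, with a median of 0.21. Leaving out 1 prep gave 3 to 13 nas genes below, and 2335 to 3918 of all genes. nas-5 was also lost under quantile normalization, with the first probe per gene and with adjustment over all probes (adjusted p = 0.0504, 0.0504 and 0.0535). Apart from the turned sign and no moderation, the calls of nas-20, nas-31 and nas-3 held in all alternatives, and no other call did. Otherwise signs changed only for members that did not pass: with blocks, nas-1 was −0.071, nas-18 0.0010, nas-25 −0.11, nas-33 0.10 and nas-7 0.063. Leaving out 1 prep gave ranges of −0.069 to 0.076 for nas-1, −0.10 to 0.027 for nas-7, −0.23 to 0.0019 for nas-16, −0.26 to 0.15 for nas-17, −0.15 to 0.042 for nas-18, −0.14 to 0.15 for nas-25, −0.32 to 0.089 for nas-33 and −0.13 to 0.26 for nas-36. The cause of these shifts was not tested. No paired analysis was possible because the preps form 1 group. The number of arrays limits the precision.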
